A study of Mus musculus with 16 samples.

Results

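The transcriptional response of GM-TC macrophages to LPS was described from 4 of the 16 libraries of the series, the 2 labelled GM-TC-LPS and the 2 labelled GM-TC, chosen by their labels and not by any measured value. These are bone marrow derived macrophages (BMDMs) of C57BL/6J mice of 8 weeks, grown for 7 days with GM-CSF at 20 ng/ml on tissue culture treated (TC) plastic. GM-TC-LPS cells then received LPS at 100 ng/ml for 3 h, and GM-TC cells received vehicle for as long. The other libraries came from the same strain and were grown with M-CSF at 50 ng/ml (M), on dishes without the treatment that enhances adherence (noTC), or both, again in pairs with and without LPS. Each of the 8 groups held 2 biological replicates, whose origin from separate mice is not stated, so p-values measure only the spread between these libraries. The study compared dishes and growth factors and also described the LPS responses, that of GM-TC cells among them. For that response it reported more genes lower than higher, at a p-value under 0.05 from DESeq2 and a fold change above 2. The comparison here asks which genes changed within 3 h of LPS in GM-TC cells. The other 2 responses used are M-TC-LPS against M-TC and GM-noTC-LPS against GM-noTC, at 4 libraries each. A bone marrow culture with GM-CSF is a mixed population of macrophages and dendritic-like cells, so each value is an average over such a mixture.

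LPS, a glycolipid of the outer membrane of Gram-negative bacteria, is bound by CD14 and by the receptor pair TLR4 and MD-2 (gene Ly96). The adaptor MYD88 then activates NF-kB and MAP kinases at the plasma membrane, while the adaptor TRIF (gene Ticam1) signals from endosomes to IRF3 and interferon beta. Secreted interferon beta acts back on the cell through IFNAR and STAT factors and switches on interferon stimulated genes. Inhibitors such as A20 (gene Tnfaip3), SOCS proteins and the RNase regnase-1 (gene Zc3h12a) restrain the response.

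The deposited table gives estimated counts for 22287 genes, and 12514 of the 16756 with any count passed edgeR's expression filter. Total counts were 17527802 and 22400457 in GM-TC and 24064277 and 26916532 in GM-TC-LPS. Levels are given in CPM, the usual unit of counts relative to the library total, with edgeR's TMM scaling, whose factors were 1.13 and 1.11 in GM-TC and 0.804 and 0.8002 in GM-TC-LPS. A gene with 3 counts then has 0.151 and 0.121 CPM in GM-TC and 0.155 and 0.139 CPM in GM-TC-LPS, a floor that covers counting error only. The 2 GM-TC libraries were less alike than other replicates. Their counts differed by a chi-square of 12.9 per degree of freedom, against 1.92 to 5.27 in the other 7 groups, and they also held RNA of heart genes. Heart genes and a trend with gene length between these 2 libraries are given further below. Values of single genes were not adjusted for either.

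After 3 h of LPS, 1673 genes were higher and 1586 lower in GM-TC-LPS than in GM-TC, at a Benjamini-Hochberg adjusted p under 0.05 from edgeR and a fold change above 2. These are 13.4% and 12.7% of all tested genes, the shares against which gene lists are read. Without a minimum fold, 4103 genes were higher and 4282 lower. The rises reached further than the falls. Above 16-fold, 281 genes rose and 59 fell outside the heart genes, and above 64-fold 112 rose and 21 fell.

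The genes that rose held 8.44% and 7.86% of all counts in GM-TC, and 29.6% and 30.4% in GM-TC-LPS. The genes that fell went from 5.22% and 4.91% to 1.22% and 1.19%. These shares describe the genes chosen by the test. Since counts are relative to the library, the split depends on the scaling. With library size alone, 1141 genes were higher and 3233 lower, and the median over all tested genes moved, on the log2 scale, from -0.05 to -0.53. Fold changes here are therefore relative to the bulk of genes, and in bulk RNA fewer cells of a type and less RNA per cell cannot be told apart.

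**Figure D1:**
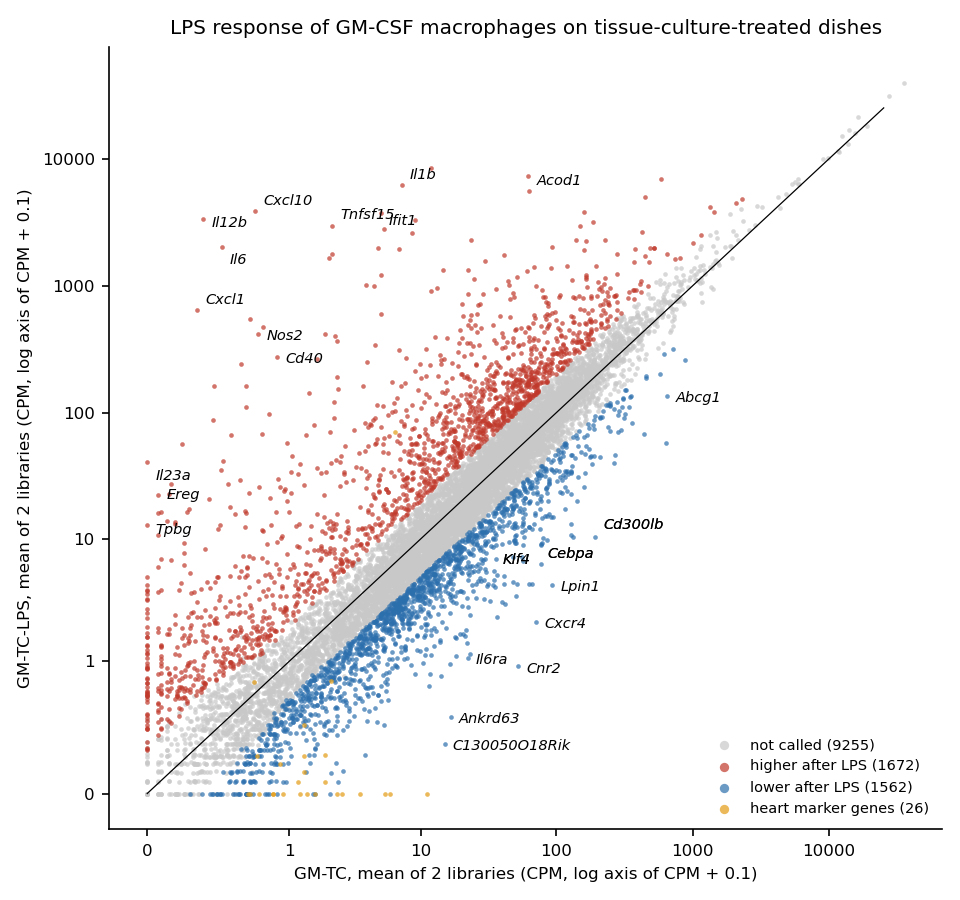
Mean CPM of each of the 12514 tested genes in GM-TC (horizontal) and GM-TC-LPS (vertical), on log axes of CPM + 0.1, with the diagonal as the line of equal level. Genes called higher are red, genes called lower blue and the 26 tested heart marker genes orange. Il12b and Il6 start below 1 CPM and end above 1000 CPM, and Cnr2 and Cxcr4 lie on the other side of the diagonal.

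Cytokine and chemokine genes made up most of the strongest rises. Among genes at 10 CPM or more in the higher group, the 12 largest log2 fold changes were those of Il12b, Il6, Il23a, Cxcl10, Cxcl1, Tpbg, Tnfsf15, Ifi205, Il1b, Ptgs2, Cxcl2 and Ereg. Il12b, the subunit that IL-12 and IL-23 share, had 0.151 and 0.161 CPM in GM-TC and 3176 and 3535 CPM in GM-TC-LPS (log2 fold change 14.34, standard error 0.18, adjusted p = 7.8e-24 from edgeR). Il6, an acute phase cytokine, had 0.303 and 0.201 CPM in GM-TC and 1950.5 and 2085 CPM in GM-TC-LPS (log2 fold change 12.97, standard error 0.18, adjusted p = 7.8e-24 from edgeR). Both went from a few counts per library to the 34th and 56th most abundant gene in GM-TC-LPS when CPM is divided by exon length, ranks that were 11767 and 11629 in GM-TC.

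Il23a encodes the subunit that pairs with Il12b in IL-23. It had no count in either GM-TC library and 37.7 and 44.2 CPM in GM-TC-LPS, which is at least 301-fold higher against a floor of 3 counts per library. Tpbg, a membrane glycoprotein gene, was also without a count in GM-TC and had 12.7 and 12.999 CPM in GM-TC-LPS, at least 94.3-fold higher. Among these 4 libraries, both genes had counts in the LPS pair only. Ereg, which encodes the EGF receptor ligand epiregulin, had 1 count over both GM-TC libraries and 20.5 and 24.4 CPM in GM-TC-LPS, a ratio of 1006 with a 95% counting interval of 180.1 to 39766 (exact). In all, 53 of the genes that rose had no count in GM-TC.

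Cxcl10, a chemokine for T cells that interferons induce, had 0.353 and 0.685 CPM in GM-TC and 3758 and 3931 CPM in GM-TC-LPS. Cxcl1 and Cxcl2 attract neutrophils through CXCR2. Cxcl1 had 0.101 and 0.161 CPM in GM-TC and 642 and 643 CPM in GM-TC-LPS. Cxcl2 had 2.12 and 2.17 CPM in GM-TC and 1743 and 1789 CPM in GM-TC-LPS. The log2 fold changes were 12.79, 12.17 and 9.68, and in each both LPS libraries were far above both controls. Without GM-TC replicate 2, that of Cxcl10 was 13.39. Il1b, an inflammasome substrate, had 7.12 and 7.33 CPM in GM-TC and 5945 and 6381 CPM in GM-TC-LPS. It ranked 19th per exon length in GM-TC-LPS, the highest of the 12. Ptgs2, the inducible cyclooxygenase, had 2.27 and 1.81 CPM in GM-TC and 1614 and 1705 CPM in GM-TC-LPS. Tnfsf15, a TNF family ligand, had 2.98 and 1.37 CPM in GM-TC and 2894 and 3059 CPM in GM-TC-LPS, and its fold was 11.10 on the log2 scale without GM-TC replicate 1, against 10.47 with it. Ifi205, a gene of the interferon inducible HIN-200 cluster, had 0.454 and 0.483 CPM in GM-TC and 527 and 562 CPM in GM-TC-LPS. Absence of overlap between the groups was a condition of this choice of genes.

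**Figure D2:**
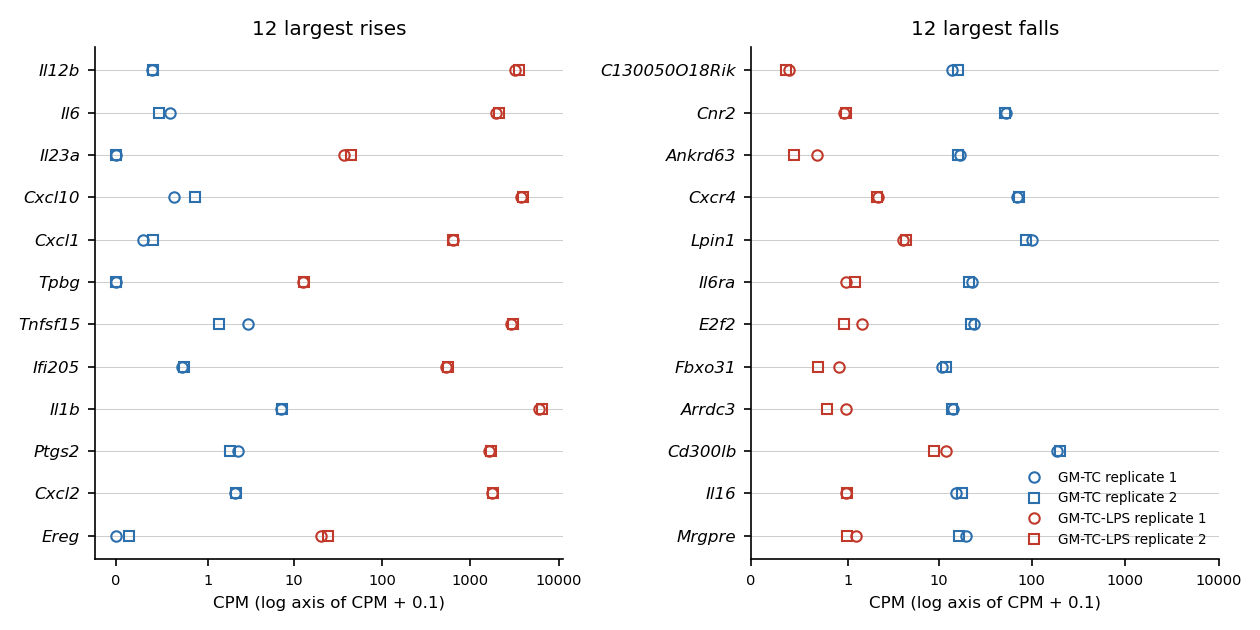
CPM of the 12 genes with the largest rises (left) and the 12 with the largest falls (right) in each of the 4 libraries, on a log axis of CPM + 0.1. Blue symbols are GM-TC and red symbols GM-TC-LPS, with circles for replicate 1 and squares for replicate 2. The groups do not overlap because genes were chosen so, and the distance between blue and red is the size of each change.

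The promoters of 4 of these genes are shown because short motifs bound by the factors named above could be read in them. RefSeq windows of 250 bases before to 50 bases after the gene start (GRCm38.p6) were held for 10 of the 12 genes. GGGNNNTTC is a part of the NF-kB motif and GAAANNGAA a part of the ISRE, the element bound by STAT and IRF factors, and both strands were searched. In the 4 windows below, read 5′ to 3′ on the gene's strand, capitals mark these matches.
Il6 (chr5:30012864-30013163, plus strand): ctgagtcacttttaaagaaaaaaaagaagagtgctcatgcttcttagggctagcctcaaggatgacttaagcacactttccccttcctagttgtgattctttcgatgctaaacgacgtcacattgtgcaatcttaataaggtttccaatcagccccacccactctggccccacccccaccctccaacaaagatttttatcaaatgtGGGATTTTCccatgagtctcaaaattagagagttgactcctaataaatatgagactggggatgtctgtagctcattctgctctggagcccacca
Cxcl1 (chr5:90890995-90891294, plus strand): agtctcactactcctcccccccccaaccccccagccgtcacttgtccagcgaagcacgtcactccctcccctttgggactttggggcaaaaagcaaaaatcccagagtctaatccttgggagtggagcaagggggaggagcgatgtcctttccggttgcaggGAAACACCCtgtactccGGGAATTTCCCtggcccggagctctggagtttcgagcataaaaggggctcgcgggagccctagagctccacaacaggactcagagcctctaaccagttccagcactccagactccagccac
Cxcl10 (chr5:92348840-92349139, minus strand): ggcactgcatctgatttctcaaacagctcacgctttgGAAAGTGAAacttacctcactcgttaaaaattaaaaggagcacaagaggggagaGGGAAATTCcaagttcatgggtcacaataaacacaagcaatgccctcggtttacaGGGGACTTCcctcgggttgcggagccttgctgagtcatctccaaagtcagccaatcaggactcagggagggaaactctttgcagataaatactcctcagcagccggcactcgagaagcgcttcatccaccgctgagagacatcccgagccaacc
Ifi205 (chr1:174031706-174032005, minus strand): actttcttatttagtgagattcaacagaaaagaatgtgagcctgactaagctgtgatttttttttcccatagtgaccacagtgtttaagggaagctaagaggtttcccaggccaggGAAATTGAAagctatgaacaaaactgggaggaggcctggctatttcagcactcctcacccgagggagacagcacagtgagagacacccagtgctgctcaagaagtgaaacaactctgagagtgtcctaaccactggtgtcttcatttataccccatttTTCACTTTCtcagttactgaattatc
Il6 and Cxcl1 held the first motif, at 1 and 3 positions, of which 2 in Cxcl1 overlap as a site read on both strands. Cxcl10 held 2 matches of the first motif and 1 of the second, and Ifi205 held 2 of the second.

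The first motif was present in 4 of the 10 windows of the largest rises and in 4 of 12 of the largest falls, and the second in 2 and 0. Among all 32851 mouse windows held, 13.96% have the first motif and 8.56% the second. A match describes the letters of the window only. Shares over all genes that rose or fell were void, since only 76.2% and 79.1% of them had a window under their symbol.

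Of the 12 strongest falls, 5 were in receptor genes, Cnr2, Cxcr4, Il6ra, Cd300lb and Mrgpre, a grouping made after the genes were seen. The share of receptor genes among all tested genes was not counted. At 10 CPM or more in GM-TC, the 12 largest were those of C130050O18Rik, Cnr2, Ankrd63, Cxcr4, Lpin1, Il6ra, E2f2, Fbxo31, Arrdc3, Cd300lb, Il16 and Mrgpre, with heart genes counted apart. Cnr2, the cannabinoid receptor of immune cells, had 52.8 and 52.3 CPM in GM-TC and 0.879 and 0.929 CPM in GM-TC-LPS (log2 fold change -5.85, standard error 0.12, adjusted p = 1.1e-20 from edgeR). Cxcr4, the receptor of the marrow retention chemokine CXCL12, had 68.96 and 73.6 CPM in GM-TC and 2.17 and 2.14 CPM in GM-TC-LPS (log2 fold change -5.05, standard error 0.11, adjusted p = 2.3e-20 from edgeR). Il6ra, the receptor subunit that binds IL-6, had 23.02 and 21.5 CPM in GM-TC and 0.931 and 1.21 CPM in GM-TC-LPS (log2 fold change -4.36, standard error 0.16, adjusted p = 1.0e-16 from edgeR). The receptor of IL-6 thus fell while Il6 itself rose.

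Lpin1, a phosphatidate phosphatase of lipid synthesis, had 99.5 and 86.97 CPM in GM-TC and 4.14 and 4.46 CPM in GM-TC-LPS. Cd300lb, an activating receptor of myeloid cells, had 184 and 198 CPM in GM-TC and 11.9 and 8.87 CPM in GM-TC-LPS, the highest starting level of the 12. E2f2, a cell cycle transcription factor, had 23.98 and 22.5 CPM in GM-TC and 1.45 and 0.882 CPM in GM-TC-LPS. In these 3 genes both LPS libraries were below every control by a factor of more than 10. Il16, a cytokine precursor, had 15.3 and 17.7 CPM in GM-TC and 0.931 and 0.975 CPM in GM-TC-LPS. Arrdc3, an arrestin domain protein, had 14.4 and 14.1 CPM in GM-TC and 0.931 and 0.557 CPM in GM-TC-LPS. Fbxo31, an F-box protein of a ubiquitin ligase, had 10.8 and 12.2 CPM in GM-TC and 0.775 and 0.418 CPM in GM-TC-LPS. Mrgpre belongs to a family of receptors known from sensory neurons, and the roles of Ankrd63 and C130050O18Rik are left out. Mrgpre had 19.6 and 16.8 CPM in GM-TC and 1.24 and 0.975 CPM in GM-TC-LPS. Ankrd63 had 17.2 and 16.2 CPM in GM-TC and 0.414 and 0.186 CPM in GM-TC-LPS. C130050O18Rik had 13.8 and 16.2 CPM in GM-TC and 0.155 and 0.139 CPM in GM-TC-LPS, at or near the floor after LPS.

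None of the genes abundant in other libraries was at 0 in GM-TC-LPS. Among genes at 100 CPM or more elsewhere, the lowest level in GM-TC-LPS was 1.23% and 1.87% of the mean of the other libraries, against 0% and 0.0208% in GM-TC. Whether it is low expression or reads from other libraries was not tested. With such a share subtracted, the log2 fold changes of Cnr2, Il6ra and Cxcr4 were -7.43, -6.31 and -6.19, against -5.85, -4.36 and -5.05 without it.

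Genes of the LPS receptor and its first signaling steps changed in part. Of 27 tested members, 10 rose and 1 fell, with a median log2 fold change of 0.64. Tlr4, the receptor, was the only member to fall, with 238 and 205 CPM in GM-TC and 100.5 and 107 CPM in GM-TC-LPS (log2 fold change -1.09, standard error 0.07, adjusted p = 2.1e-12 from edgeR). Without GM-TC replicate 1 its log2 fold change was -0.97, which is under the fold of 2. Cd14, the coreceptor, went the other way with 156 and 176 CPM in GM-TC and 1124 and 1201 CPM in GM-TC-LPS (log2 fold change 2.81, standard error 0.06, adjusted p = 1.5e-20 from edgeR). Traf1, an adaptor of TNF receptors, rose from 5.55 and 4.95 CPM to 114 and 112 CPM, and Ripk2, the kinase of NOD signaling, rose from 20.2 and 21.8 CPM to 184 and 199.6 CPM. Myd88, Irak2 and Irak3 also rose (log2 fold changes 1.56, 1.62 and 2.44), while the TRIF gene Ticam1 was at 0.12. Under library size alone 8 rose and 2 fell.

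Among the 11 other Toll-like receptors tested, 4 rose and 0 fell. Tlr2, the receptor of bacterial lipoproteins, had 200.3 and 204 CPM in GM-TC and 1066 and 1078 CPM in GM-TC-LPS. Tlr3, a receptor of double-stranded RNA, had 12.2 and 10.8 CPM in GM-TC and 133 and 133 CPM in GM-TC-LPS. Tlr1, which pairs with Tlr2, had 17.3 and 18.6 CPM in GM-TC and 56.5 and 60.96 CPM in GM-TC-LPS. All 3 were called higher, and Tlr7 rose as well (1.27 on the log2 scale). Under library size alone the list's median log2 fold change turned from 0.40 to -0.08. Pattern receptors of other families had 27 tested members, of which 7 rose and 0 fell (median log2 fold change 0.27). Clec4e, the receptor Mincle for mycobacterial glycolipid, had 21.8 and 25.6 CPM in GM-TC and 2189 and 2352 CPM in GM-TC-LPS. The scavenger receptors Marco and Olr1 rose from 1.67 and 2.21 CPM to 30.6 and 37.8 CPM and from 35.4 and 36.8 CPM to 251 and 250.3 CPM. Mannose receptor Mrc1, Cd36 and the C1q genes did not pass the fold of 2.

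NF-kB genes rose almost throughout. Of the 16 subunits and inhibitors, 14 rose and 0 fell, with a median log2 fold change of 2.68. The subunit genes Nfkb1, Nfkb2, Rel, Relb and Rela rose with log2 fold changes of 3.35, 3.67, 3.07, 2.72 and 1.79. Nfkbia, the inhibitor IkB alpha that retains NF-kB in the cytoplasm, had 23.6 and 28.4 CPM in GM-TC and 431 and 429 CPM in GM-TC-LPS (log2 fold change 4.04, standard error 0.07, adjusted p = 1.6e-22 from edgeR). Nfkbiz, a nuclear coactivator needed for secondary response genes, had 5.81 and 4.39 CPM in GM-TC and 583 and 613 CPM in GM-TC-LPS, the largest rise of the list. Tnfaip3, the deubiquitinase A20, had 26.9 and 22.6 CPM in GM-TC and 1120.2 and 1133 CPM in GM-TC-LPS, and Nfkbie 14.3 and 13.9 CPM in GM-TC and 257 and 258 CPM in GM-TC-LPS. In each of them the LPS libraries were over 10 times the controls. Cyld and Tnip2 did not reach the fold of 2, at 0.79 and 0.48.

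Immediate early transcription factors moved both ways at 3 h. Of 21 tested, 9 rose and 4 fell, with a median log2 fold change of 0.75. Nr4a3, an orphan nuclear receptor, had 11.3 and 10.6 CPM in GM-TC and 306 and 327 CPM in GM-TC-LPS. Batf2, an interferon inducible bZIP factor, had 1.06 and 1.05 CPM in GM-TC and 43.9 and 47.6 CPM in GM-TC-LPS, and Maff, a small Maf factor, 3.08 and 2.496 CPM in GM-TC and 28.7 and 28.3 CPM in GM-TC-LPS. The AP-1 genes Junb and Fosl2 rose (2.10 and 1.24 on the log2 scale). Fos, another AP-1 subunit, fell from 15.4 and 15.3 CPM to 2.33 and 1.53 CPM, Egr2, a zinc finger factor of myeloid cells, from 117 and 113 CPM to 16.5 and 18.1 CPM, and Myc from 24.6 and 24.1 CPM to 7.24 and 7.71 CPM. For Egr2 and Myc the controls were above 20 CPM. Egr1 and Jun, by contrast, were at 0.30 and -0.37.

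Of 33 cytokine genes tested, 27 rose and 3 fell, with a median log2 fold change of 5.47, or 4.29 with the 3 genes without counts in 1 group set at their bound. Tnf had 8.23 and 9.91 CPM in GM-TC and 3202 and 3356 CPM in GM-TC-LPS (log2 fold change 8.49, standard error 0.09, adjusted p = 1.7e-25 from edgeR). Il27, Il12a, Il1a and Csf2, which encodes GM-CSF itself, rose with log2 fold changes of 9.30, 9.19, 6.87 and 5.69. Il10, the anti-inflammatory cytokine, had no count in GM-TC and only 0.465 and 0.511 CPM after LPS, at least 3.58-fold higher. At 3 h its level was thus below 1 CPM, where Il12b and Tnf were among the most abundant genes. Il16, Vegfa, a growth factor of vessels, and Tnfsf14, a TNF family ligand, fell (-4.11, -1.99 and -1.47). Il1rn, which encodes the IL-1 receptor antagonist, rose with 3.32.

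Chemokine genes rose and most of their receptors fell. Of 23 chemokines, 19 rose and 0 fell, with a median log2 fold change of 4.35. Ccl5, an attractant of T cells and monocytes, had 5.35 and 4.83 CPM in GM-TC and 1205 and 1201 CPM in GM-TC-LPS. Cxcl9, a further interferon induced ligand of CXCR3, had 0 and 0.161 CPM in GM-TC and 54.95 and 58.2 CPM in GM-TC-LPS, and Cxcl11, the third, no count in GM-TC and 4.498 and 5.52 CPM in GM-TC-LPS. Ccl17, a ligand of CCR4 that GM-CSF cells make, started higher and rose from 55.5 and 75.1 CPM to 241 and 264 CPM. Ccl6, Pf4, Ppbp and Ccl24 did not pass. Of 11 receptors, 3 rose and 7 fell (median log2 fold change -1.38). Ccr2, the receptor of monocyte recruitment, had 48.4 and 47.03 CPM in GM-TC and 7.24 and 7.24 CPM in GM-TC-LPS (-2.72 on the log2 scale). Cx3cr1 and Ccr1 fell with -1.16 and -1.57. Ccrl2, an atypical receptor without signaling to G proteins, had 20.6 and 23.96 CPM in GM-TC and 856 and 872 CPM in GM-TC-LPS, and Ccr7, which directs migration to lymph nodes, rose from 9.19 and 9.62 CPM to 53.2 and 58.8 CPM.

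All 52 listed interferon stimulated genes rose, with log2 fold changes of 1.42 to 10.16 and a median of 4.47, and 51 did so under library size alone. Ifit1, which binds foreign RNA, had 4.998 and 5.11 CPM in GM-TC and 3719 and 3778 CPM in GM-TC-LPS (log2 fold change 9.53, standard error 0.07, adjusted p = 6.1e-28 from edgeR). Oasl1, an oligoadenylate synthetase-like protein, had 0.656 and 0.564 CPM in GM-TC and 462 and 478 CPM in GM-TC-LPS, and the GTPase Gbp5 7.32 and 6.603 CPM in GM-TC and 1955 and 1944 CPM in GM-TC-LPS. Ifnb1 itself stayed low, with 2 counts over both GM-TC libraries and 7.24 and 6.36 CPM in GM-TC-LPS, a ratio of 151 with a 95% exact counting interval of 41.5 to 1255. So the ligand was at under 10 CPM while its target Ifit1 ranked 42nd per exon length.

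Of 20 interferon, receptor, IRF and STAT genes, 11 rose and 0 fell (median log2 fold change 1.13). Irf7 and Irf1, transcription factors that interferon induces, both rose. Irf7 had 3.13 and 4.91 CPM in GM-TC and 239 and 264 CPM in GM-TC-LPS. Irf1 had 23.6 and 22.95 CPM in GM-TC and 535 and 535 CPM in GM-TC-LPS. Stat2 rose (3.09), and Irf3, which acts before transcription of Ifnb1, was at 0.04. By family, 7 of 7 Schlafen genes rose (median log2 fold change 4.41), led by Slfn8 with 21.5 and 19.1 CPM in GM-TC and 712 and 723 CPM in GM-TC-LPS. Among guanylate binding proteins 9 of 11 rose (median log2 fold change 3.18), and Gbp3 had 25.3 and 29.8 CPM in GM-TC and 697 and 728 CPM in GM-TC-LPS. Genes of these families are near copies of each other, so reads may have been split among them by the counting. All members of both families that passed were higher.

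Feedback inhibitors were mixed, since 13 rose and 3 fell of 26 (median log2 fold change 1.05). Socs3, which restrains IL-6 receptor signaling, had 24.2 and 26.4 CPM in GM-TC and 479 and 505 CPM in GM-TC-LPS (log2 fold change 4.28, standard error 0.07, adjusted p = 4.2e-23 from edgeR). Zc3h12a had 18.6 and 19.05 CPM in GM-TC and 301 and 303 CPM in GM-TC-LPS, and Gadd45b, a stress response gene, 8.94 and 10.1 CPM in GM-TC and 148 and 151 CPM in GM-TC-LPS. Zfp36l2 and Dusp6, an RNA decay factor and a phosphatase of ERK, fell with -2.01 and -1.66. Dusp1, a phosphatase of p38 and JNK, was at 0.20.

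Arginine, nitric oxide and itaconate genes rose in 8 of 12 cases (median log2 fold change 2.26). Nos2, the inducible nitric oxide synthase, had 0.454 and 0.644 CPM in GM-TC and 393 and 439.7 CPM in GM-TC-LPS (log2 fold change 9.53, standard error 0.15, adjusted p = 4.5e-23 from edgeR). Acod1, which makes itaconate, had 60.7 and 64.5 CPM in GM-TC and 5471 and 5647 CPM in GM-TC-LPS, the 27th level per exon length in GM-TC-LPS. Slc7a11, a cystine transporter, rose from 182 and 150.3 CPM to 2218 and 2262 CPM. Arg1, the arginase that competes with Nos2, had 54.1 and 51.9 CPM in GM-TC and 19.6 and 37.98 CPM in GM-TC-LPS, and its LPS replicates were far apart, so that it passed the fold of 2 only without GM-TC-LPS replicate 2 (log2 fold change -1.43 against -0.87) or under library size alone.

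In eicosanoid synthesis, Ptgs2 and Ptges, the terminal prostaglandin E synthase, rose, the latter from 4.95 and 3.83 CPM to 15.7 and 15.7 CPM. Ptgs1, the constitutive cyclooxygenase, fell from 249 and 243 CPM to 118 and 112 CPM. The other 11 of 14 tested genes were not called (median log2 fold change of the list -0.25). Glycolysis and hypoxia genes passed in 5 of 24 cases upward and 2 downward (median log2 fold change 0.26). Hif1a, the hypoxia factor, had 225 and 209.6 CPM in GM-TC and 901 and 917 CPM in GM-TC-LPS, and Slc2a6, a lysosomal hexose transporter, 83.05 and 84.6 CPM in GM-TC and 528 and 561 CPM in GM-TC-LPS. The peptide hormone gene Adm, a target of hypoxia, had 2 counts over both GM-TC libraries and 25.95 and 28.4 CPM in GM-TC-LPS, a ratio of 608 with a 95% exact counting interval of 168 to 5024. The glycolytic enzymes Gapdh, Pkm and Ldha were at 0.23, 0.00 and 0.37. Of 20 genes of the tricarboxylic acid cycle (median log2 fold change -0.09), Idh1, a cytosolic enzyme, alone passed, falling from 577 and 575 CPM to 198 and 203 CPM.

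Costimulatory and adhesion genes rose in 14 of 15 cases (median log2 fold change 3.00). Cd40, the receptor of the T cell ligand CD40L, had 0.707 and 0.886 CPM in GM-TC and 266 and 283 CPM in GM-TC-LPS, the activation marker Cd69 2.12 and 2.62 CPM in GM-TC and 345 and 390.5 CPM in GM-TC-LPS, and Il15ra, which presents IL-15, 2.57 and 2.899 CPM in GM-TC and 52.99 and 55.3 CPM in GM-TC-LPS. Cd80 and Cd86 rose by 3.00 and 2.82 on the log2 scale. Class I presentation genes rose in 10 of 14 cases (median log2 fold change 1.49), among them the peptide transporter Tap1 (from 25.3 and 25.5 CPM to 231 and 249 CPM), the class I transactivator Nlrc5 (from 34.8 and 29.6 CPM to 223 and 237 CPM) and the immunoproteasome subunit Psmb9 (from 7.02 and 8.74 CPM to 27.8 and 27.9 CPM). None of the 10 class II genes reached the fold of 2. Their median log2 fold change was 0.69, and the class II transactivator Ciita had 26.3 and 23.5 CPM in GM-TC and 42.6 and 44.8 CPM in GM-TC-LPS (log2 fold change 0.82, standard error 0.09, adjusted p = 4.1e-08 from edgeR).

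Of 27 inflammasome and cell death genes, 15 rose and 2 fell (median log2 fold change 1.68). Mefv, which encodes pyrin, had 0.151 and 0.0403 CPM in GM-TC and 15.5 and 16.99 CPM in GM-TC-LPS. Casp4, the caspase that senses cytosolic LPS, had 10.5 and 11.6 CPM in GM-TC and 134 and 144 CPM in GM-TC-LPS, and Cflar, an inhibitor of caspase-8, 133 and 106 CPM in GM-TC and 1420.2 and 1442 CPM in GM-TC-LPS. Nlrp3 and Casp1 rose as well (3.29 and 1.68). Nlrp1b, a sensor, fell (-2.84), and the adaptor Pycard, at -1.01, was no longer called with DESeq2 size factors.

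Receptors for nucleotides, lipids and chemoattractants split evenly, with 10 up and 10 down of 29 (median log2 fold change -0.55). Adora2a, the adenosine receptor that raises cyclic AMP, had 2.93 and 1.53 CPM in GM-TC and 118 and 124 CPM in GM-TC-LPS. The lysophosphatidic acid receptor Lpar1 rose from 0.808 and 0.886 CPM to 25.8 and 25.998 CPM, while Lpar5 and Lpar6 fell (-5.21 and -3.08). Fpr1, the receptor of bacterial formyl peptides, rose from 21.7 and 22.6 CPM to 331 and 377 CPM. The nucleotide receptors P2ry1 and P2ry6 fell (-2.98 and -2.95). Cytokine receptors gave 6 rises and 2 falls of 20 (median log2 fold change 0.28). The TNF receptor Tnfrsf1b rose from 492 and 475 CPM to 1959 and 2005 CPM, and the IL-1 receptor Il1r1 fell from 9.29 and 8.01 CPM to 2.07 and 0.975 CPM. Neither growth factor receptor changed by the fold of 2. Csf2ra, the GM-CSF receptor, had 149 and 171 CPM in GM-TC and 212 and 209.7 CPM in GM-TC-LPS (log2 fold change 0.40, standard error 0.07, adjusted p = 2.4e-05 from edgeR), and Csf1r, the M-CSF receptor, 872 and 812 CPM in GM-TC and 728 and 755 CPM in GM-TC-LPS (log2 fold change -0.18, standard error 0.05, adjusted p = 0.0035 from edgeR).

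Transcription factors of the macrophage lineage fell more often than they rose. Of 29 tested, 3 rose and 13 fell, with a median log2 fold change of -0.52. Cebpa, a factor of myeloid differentiation, had 129 and 134 CPM in GM-TC and 10.5 and 10.1 CPM in GM-TC-LPS (log2 fold change -3.68, standard error 0.07, adjusted p = 1.6e-21 from edgeR). Tfeb, the regulator of lysosome genes, had 32.8 and 32.3 CPM in GM-TC and 3.21 and 3.11 CPM in GM-TC-LPS. Klf4, a factor of monocyte differentiation, had 78.7 and 74.2 CPM in GM-TC and 8.68 and 9.24 CPM in GM-TC-LPS. All 3 fell by a factor of more than 8 with replicates close together. Pparg, which GM-CSF induces in alveolar macrophages, had 35.1 and 37.2 CPM in GM-TC and 10.1 and 11.4 CPM in GM-TC-LPS. Spi1, the gene of the master factor PU.1, was at 0.26. Klf2, an anti-inflammatory factor of the same family as Klf4, had 7.62 and 7.73 CPM in GM-TC and 10.8 and 13.3 CPM in GM-TC-LPS. Klf6 and Klf3 rose (1.22 and 1.23), and of 12 Kruppel-like factors tested 6 rose and 3 fell (median log2 fold change 0.94), with Klf8 rising from 4.75 and 5.03 CPM to 25.5 and 21.4 CPM. Under library size alone 0 lineage factors rose and 15 fell.

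Genes that GM-CSF or the alveolar state raises, Pparg among them, gave 2 rises and 1 fall of 15, the fall being that of Pparg (median log2 fold change -0.08). Car4, a carbonic anhydrase, rose from 21.9 and 22.5 CPM to 114 and 128 CPM. Itgax, Chil3 and Fabp4 were at 0.10, 0.33 and -0.25. TGF-beta pathway genes gave 6 rises and 3 falls of 24 (median log2 fold change 0.40). The receptor Tgfbr1 fell from 183 and 172 CPM to 45.9 and 43.8 CPM and the corepressor Ski from 122 and 115 CPM to 22.2 and 25.6 CPM. Skil, a relative of Ski, rose from 83.5 and 69.2 CPM to 246 and 243 CPM.

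Cell cycle genes fell in part, and Mki67 rose. Of 28 DNA replication genes 0 rose and 7 fell, with a median log2 fold change of -0.65, and of 25 genes of mitosis 1 rose and 9 fell, with a median log2 fold change of -0.83. Under library size alone 18 and 15 fell. The helicase subunit Mcm2, the loading factor Cdc6 and the histone chaperone Chaf1a fell from 23.9 and 24.2 CPM to 9.77 and 9.19 CPM, from 6.36 and 7.13 CPM to 1.86 and 1.72 CPM and from 15.6 and 14.3 CPM to 5.63 and 5.85 CPM. Kif23, a kinesin of cytokinesis, had 18.5 and 17.4 CPM in GM-TC and 3.36 and 3.67 CPM in GM-TC-LPS, and Cenpf, a kinetochore protein, 14.5 and 10.4 CPM in GM-TC and 3.98 and 4.22 CPM in GM-TC-LPS. Mki67, the proliferation antigen, rose, with 279 and 198 CPM in GM-TC and 802 and 851 CPM in GM-TC-LPS (log2 fold change 1.80, standard error 0.09, adjusted p = 8.3e-14 from edgeR). Its 2 controls also differed from each other, with the higher value in replicate 1.

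Sterol and fatty acid synthesis gave 1 rise and 6 falls of 25 (median log2 fold change -0.27). Scd2, a fatty acid desaturase, had 904 and 854 CPM in GM-TC and 257 and 258 CPM in GM-TC-LPS. The cholesterol enzymes Mvd and Lss fell from 77.9 and 85.8 CPM to 31.4 and 32.2 CPM and from 49.1 and 48.5 CPM to 19.2 and 21.6 CPM. Of 11 LXR targets and efflux genes, 2 rose and 1 fell, with a median log2 fold change of 0.31, and the 2 main transporters parted. Abcg1 fell from 657 and 643 CPM to 139 and 131 CPM, and Abca1 rose from 164 and 128 CPM to 346 and 375 CPM, though its log2 fold change of 1.30 was 0.82 under library size alone. Ch25h, which makes 25-hydroxycholesterol, had 6.51 and 6.12 CPM in GM-TC and 117 and 121 CPM in GM-TC-LPS.

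Ribosomal protein and respiratory chain genes moved little. None of 77 ribosomal protein genes passed, and all were slightly higher, with log2 fold changes of 0.04 to 0.79, but their median turned to -0.22 under library size alone. Of 75 oxidative phosphorylation subunits, Cox6a2, the heart and muscle form of a cytochrome oxidase subunit, was the only one called. Of 348 zinc finger genes named Zfp, 27 rose and 39 fell, with a median log2 fold change of -0.24. Zfp558 rose from 1.16 and 0.644 CPM to 22.5 and 25.5 CPM, and Zfp532 fell from 11.1 and 10.99 CPM to 2.74 and 1.35 CPM. Both shares are below those of all tested genes.

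Some medians near 0 changed sign when libraries were scaled by size alone. Among the lists of pathways and families they were those of the other Toll-like receptors, glycolysis and hypoxia, LXR targets, cytokine receptors (-0.20), the TGF-beta pathway (-0.08), phagocytic receptors (-0.21), oxidative phosphorylation and ribosomal proteins, and among marker lists those of macrophage identity and of T and NK cells. The medians of cytokines, chemokines, NF-kB genes and interferon stimulated genes stayed above 1 under both scalings.

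**Figure D3:**
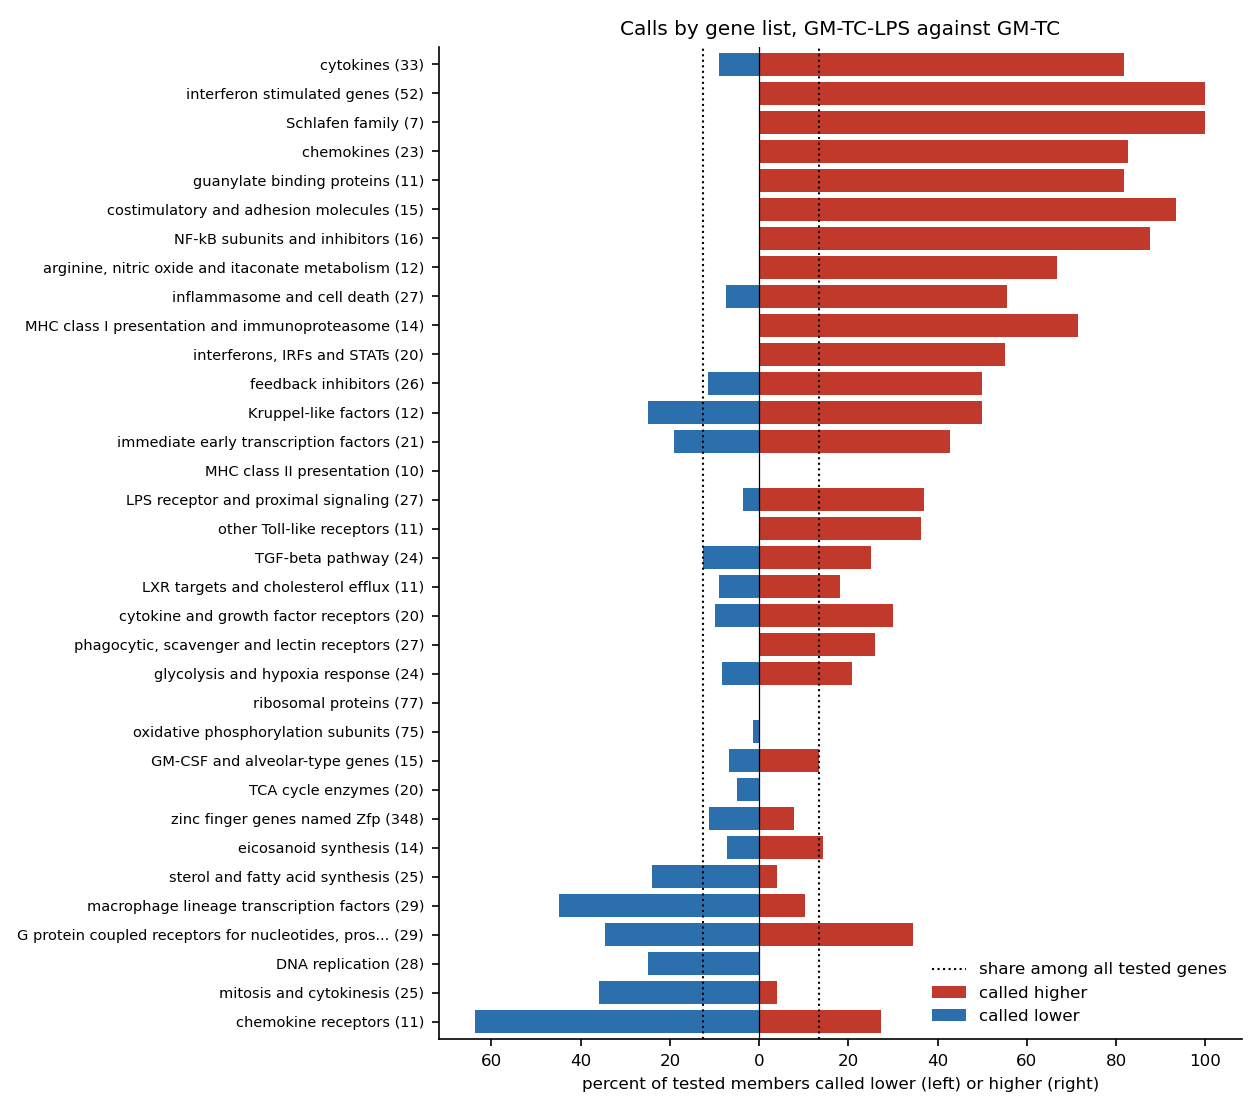
Percent of the tested members of each gene list that were called higher (red, right) or lower (blue, left) in GM-TC-LPS than in GM-TC, ordered by the median log2 fold change of the list, with the number tested in parentheses. Dotted lines mark the 13.4% and 12.7% of all tested genes. Interferon stimulated genes stand at 100% higher, and chemokine receptors at the other end.

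The cells carried the markers of macrophages in all 4 libraries. All 10 identity genes were detected, 2 of them higher and 0 lower, at a summed level of 44015 and 46826 CPM, scaled by library size, in GM-TC and 37708 and 36685 in GM-TC-LPS. Summed markers of B cells, T and NK cells and erythroid cells were not called in any of the 1, 2 and 1 genes tested and stayed between 0.268 and 2.85 CPM. Neutrophil markers summed to 828 and 818 CPM before and 542 and 563 after LPS, nearly all of it Mmp8, which was not called. Of 7 neutrophil markers tested, 5 were higher, 3 were called higher and 1 lower, with a median log2 fold change of 0.94, while S100a8 was at 1.87 and 3.22 CPM in GM-TC.

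Dendritic cell markers were present and moved both ways, 5 up and 3 down of 8. Fscn1, an actin bundler of mature dendritic cells, rose from 5.55 and 5.84 CPM to 89.3 and 102 CPM, and Clec9a, a receptor of the cross-presenting type, fell from 31.8 and 31.2 CPM to 9.98 and 9.19 CPM. Stromal markers rose in 6 of 8 cases. The highest of them after LPS was Pdgfrb, which rose from 1.41 and 0.644 CPM to 32.3 and 35.5 CPM, whereas the collagen gene Col1a1 had 0.656 and 0.523 CPM in GM-TC and 3.21 and 1.16 CPM in GM-TC-LPS, with the rise mainly in replicate 1. Of endothelial markers 2 of 4 rose, at summed levels of 296 and 253 CPM before and 255 and 254 after LPS, and of mast cell and basophil markers 1 of 4. The part of these cells in the other results was not tested.

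Heart genes stood at the top of the falls. Of 26 tested, 24 were called lower, and 15 had no count in GM-TC-LPS. Myh6, the myosin heavy chain of atrial and adult mouse heart muscle, had 14.8 and 7.49 CPM in GM-TC and none after LPS, at least 75.9-fold lower. Without the 2 members that were higher, the list summed, by library size, to 75.3 and 41.96 CPM in GM-TC, 1.29 and 1.52 in GM-TC-LPS, against 1.51 and 1.83 in GM-noTC, and it was also high in M-TC (127 and 72.1). The list was thus high in the 4 TC control libraries alone. Fabp3, a fatty acid binding protein on the list that macrophages also express, rose from 7.02 and 5.92 CPM to 70.6 and 70.5 CPM. Of the 37 falls above 64-fold, 24 were genes with under 10% of their TC level in noTC controls. Leaving out all 34 such genes, 1552 falls remained.

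Many genes that rose lay beside each other. In the order of the GENCODE M21 annotation, 45.2% of the genes that rose had a tested neighbour that rose too, against 23.7% of all tested genes with such a neighbour. Among genes that fell the shares were 30.9% and 23.6%. Runs of 4 or more genes numbered 36 up and 9 down. The longest held 14 genes, starting at Aim2 and holding the HIN-200 genes Ifi203 to Ifi214. Others were the Ifit genes from Ifit2 to Ifit1, the Schlafen genes from Slfn5 to Slfn3, the Ms4a genes, Trim30 with Trim12, the Gbp genes, Ccl2 with Ccl7, Ccl12, Ccl8 and Ccl1, and the trio Cxcl9, Cxcl10 and Cxcl11. Many of these are families of near copies, whose reads may be shared. Whether the counting used strand is not stated, so reads of overlapping neighbours cannot be told apart. The longest run of falls held 5 genes, and its members share no name.

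In structure the genes that changed resembled the rest. Their median exon length was 4668 bases up and 4551.5 down, against 4466 over all tested genes, and the median number of exons was 9 in each. Genes of up to 5 exons made up 28.3% of the rises, 29.8% of the falls and 26.2% of all. Control levels differed, with a median of 11.4 CPM in GM-TC for rises, 7.65 CPM for falls and 17.4 CPM for all.

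Length did separate the 2 GM-TC libraries. Long genes were higher in replicate 1 and short genes in replicate 2, with a median log2 ratio of -0.23 for the 201 genes of up to 1000 exon bases and 0.25 for the 629 genes over 12000. Between the LPS replicates the medians were 0.01 and -0.02. The median LPS log2 fold change of the longest genes was -0.06 with replicate 1 as the only control and 0.23 with replicate 2, and that of the shortest 0.29 and 0.03. The median of the longest genes thus changed sign with the control library. Without genes over 8000 exon bases, 1328 rises and 1319 falls remained.

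**Figure D4:**
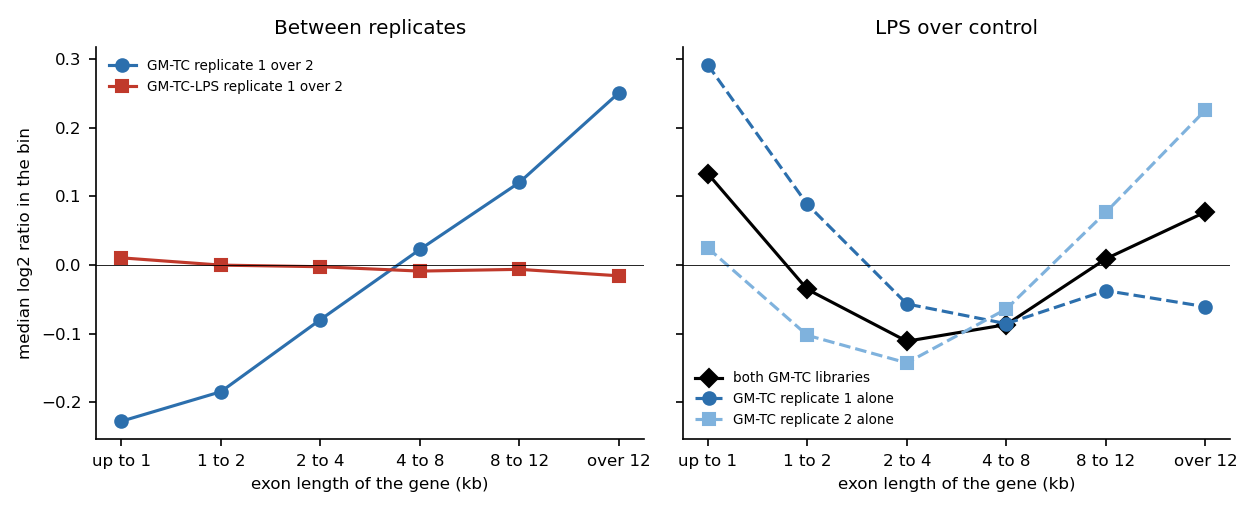
Median log2 ratio by exon length of the gene, between the 2 replicates of GM-TC (blue) and of GM-TC-LPS (red) at left, and for LPS over control at right with both GM-TC libraries (black) or either alone (blue, dashed). The GM-TC line climbs with length while the LPS line stays at 0, and the 2 single-control lines cross.

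GM-TC and M-TC cells shared much of the response. Of the 1673 genes that rose in GM-TC, 1345 rose in M-TC too, which is 80.4% of the GM-TC rises and 62.1% of the 2165 M-TC rises. For falls, 1182 were shared, or 74.5% of the GM-TC falls and 51.1% of the 2315 in M-TC. The size of the response nevertheless differed for 5145 genes by a test of the difference itself (interaction, adjusted p under 0.05 from edgeR), which is 41.1% of those tested. The log2 fold change was higher in GM-TC for 2225 (17.8%) and lower for 2920 (23.3%). Under library size alone these were 4899 and 1307, as the median difference moved from -0.04 to 0.30. More than 1 on the log2 scale separated the responses of 1594 genes.

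Interferon stimulated genes had the larger response in GM-TC. The difference was positive for 42 of 52 and negative for 5, and 45 and 5 under library size alone. Ifit1 had 96.2 and 98.8 CPM in M-TC and 4309 and 4495 CPM in M-TC-LPS, beside 4.998 and 5.11 CPM in GM-TC and 3719 and 3778 CPM in GM-TC-LPS (difference in log2 fold change 4.03, standard error 0.09, adjusted p = 6.5e-19 from edgeR). Ifit3b had 17.3 and 17.3 CPM in M-TC and 207 and 237 CPM in M-TC-LPS, beside 0.202 and 0.201 CPM in GM-TC and 84.3 and 89.2 CPM in GM-TC-LPS (difference in log2 fold change 5.03, standard error 0.27, adjusted p = 1.3e-12 from edgeR). Cxcl10 had 23.5 and 26.7 CPM in M-TC and 10507 and 10699 CPM in M-TC-LPS (difference in log2 fold change 4.07, standard error 0.19, adjusted p = 2.4e-13 from edgeR). In all 3 the GM-TC controls were below those of M-TC, and after LPS the levels were lower in GM-TC-LPS than in M-TC-LPS. Over all 52 genes of the list, 47 were lower in GM-TC than in M-TC before LPS and 49 after it. Of the 42 with the larger response these were 42 and 41, a description only, since the level before LPS is part of the fold.

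Several other programs had lower log2 fold changes in GM-TC than in M-TC. A lower value can be a smaller rise, a larger fall or a change in the opposite direction. The difference was negative for 14 of 21 immediate early factors, 13 of 23 chemokines, 15 of 26 feedback inhibitors and 18 of 27 genes of inflammasome and cell death. Under library size alone these numbers were 14, 12, 13 and 15. Over all tested genes the negative share was 23.3%. Of the immediate early factors, 4 fell in GM-TC and 0 in M-TC. Among other lists, the difference was negative for 12 of 14 class I presentation genes and 10 of 12 arginine, nitric oxide and itaconate genes. It was so for 19 of 25 sterol and fatty acid synthesis genes and 18 of 29 receptors for nucleotides, lipids and chemoattractants. Under library size alone these 4 numbers were 5, 7, 13 and 14. Glycolysis and hypoxia genes gave 17 of 24 negative but 9 under library size alone. Socs3 had 2.87 and 2.77 CPM in M-TC and 1057 and 994 CPM in M-TC-LPS (difference in log2 fold change -4.23, standard error 0.12, adjusted p = 3.1e-17 from edgeR). Its GM-TC-LPS level of 479 and 505 CPM was reached from a higher control. Zfp genes went the other way, with a positive difference for 175 of 348 and a negative one for 18. With library size alone these were 248 and 10. The positive share over all tested genes was 17.8%. In M-TC 154 Zfp genes fell, against 39 in GM-TC.

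The 5 largest negative differences at 10 CPM or more were those of Sele, Adamts4, Rgs16, Mycl and Mmp13. Mmp13, a collagenase, had 2.95 and 2.99 CPM in M-TC and 1466 and 1619.5 CPM in M-TC-LPS, beside 90.9 and 95.8 CPM in GM-TC and 611 and 598 CPM in GM-TC-LPS (difference in log2 fold change -6.32, standard error 0.11, adjusted p = 2.2e-20 from edgeR). Mycl, a relative of Myc, had 0.359 and 0.262 CPM in M-TC and 68.4 and 71.2 CPM in M-TC-LPS, beside 2.42 and 2.78 CPM in GM-TC and 6.67 and 6.41 CPM in GM-TC-LPS (difference in log2 fold change -6.48, standard error 0.28, adjusted p = 3.9e-14 from edgeR). The GM-TC controls of both were above those of M-TC, and the M-TC-LPS levels above those of GM-TC-LPS. Sele, the adhesion molecule E-selectin, Adamts4, a protease of the matrix, and Rgs16, a regulator of G protein signaling, had no count in M-TC. After LPS, Sele had 17.6 and 17.2 CPM in M-TC-LPS and 0.155 and 0.418 CPM in GM-TC-LPS. Adamts4 had 53.4 and 56.4 CPM in M-TC-LPS, beside 0.101 and 0.362 CPM in GM-TC and 12.05 and 12.2 CPM in GM-TC-LPS. Rgs16 had 11.2 and 11.9 CPM in M-TC-LPS, beside 0.0505 and 0.322 CPM in GM-TC and 2.58 and 2.18 CPM in GM-TC-LPS. All 3 ended higher in M-TC-LPS than in GM-TC-LPS.

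Positive differences outside the interferon genes were led by Arl4c and Slc26a11. Arl4c, a small GTPase, stayed at 95.8 and 85.6 CPM in GM-TC-LPS after 107 and 113 CPM in GM-TC and fell in M-TC, with 72.4 and 75.8 CPM in M-TC and 3.99 and 3.72 CPM in M-TC-LPS (difference in log2 fold change 3.98, standard error 0.15, adjusted p = 4.3e-15 from edgeR). Slc26a11, an anion transporter, fell in both, with 3.33 and 2.98 CPM in GM-TC and 0.982 and 0.371 CPM in GM-TC-LPS and 28.4 and 30.2 CPM in M-TC and 0.492 and 0.349 CPM in M-TC-LPS (difference in log2 fold change 3.85, standard error 0.51, adjusted p = 2.3e-06 from edgeR). Its GM-TC controls were far below those of M-TC.

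A few genes went in opposite directions. Beyond 2-fold either way, 33 genes were called with opposite signs, 17 falling and 16 rising in GM-TC. Egr2 fell from 117 and 113 CPM to 16.5 and 18.1 CPM in GM-TC and rose from 5.105 and 5.72 CPM to 12.3 and 10.6 CPM in M-TC (difference -3.81, adjusted p = 6.1e-15 from edgeR). Myc fell from 24.6 and 24.1 CPM to 7.24 and 7.71 CPM in GM-TC and rose from 3.59 and 5.42 CPM to 18.7 and 17.95 CPM in M-TC (difference -3.72, adjusted p = 4.5e-13 from edgeR). Both were several times higher in the GM-TC controls. Sgk1, a kinase that glucocorticoids induce, fell from 607 and 622 CPM to 291 and 287 CPM and rose in M-TC from 100.5 and 98.7 CPM to 261 and 276 CPM, so that the levels after LPS were near each other. Gpr155 and Abhd15 rose in GM-TC (log2 fold changes 1.08 and 2.16) and fell in M-TC (-2.61 and -1.66), with differences of 3.69 and 3.82. These genes were chosen after their values were seen.

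**Figure D5:**
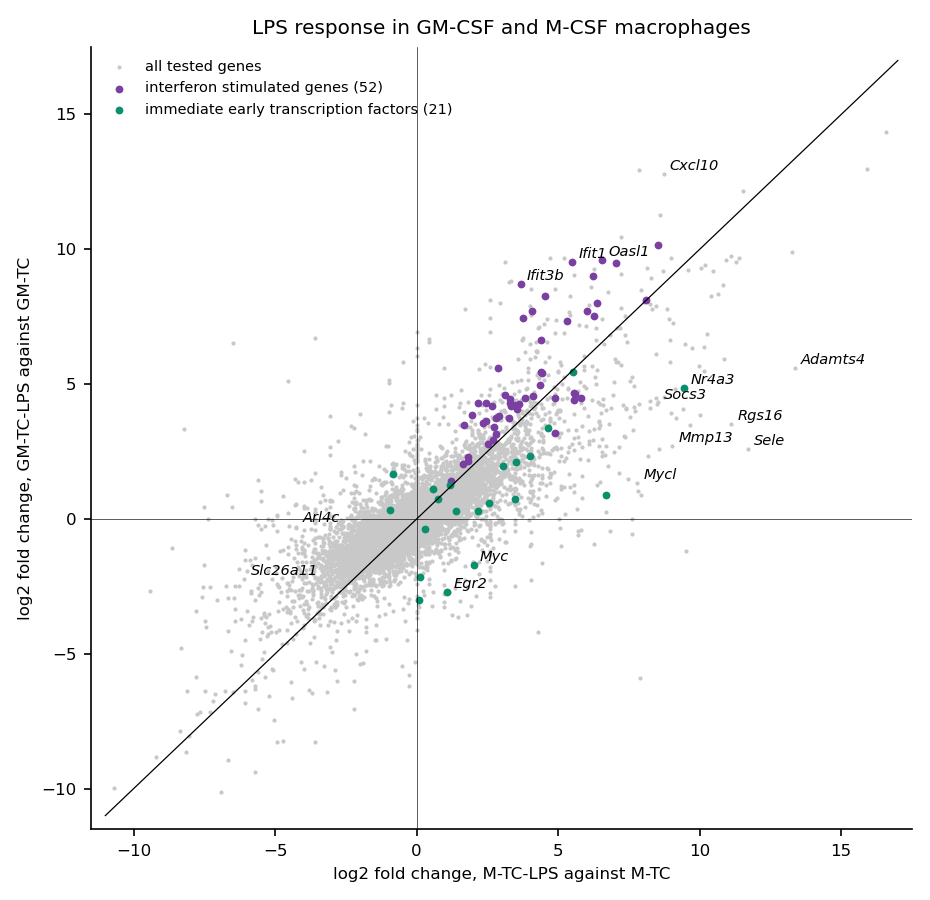
Log2 fold change upon LPS of each tested gene in M-TC (horizontal) and in GM-TC (vertical), with the diagonal as the line of equal response. Most interferon stimulated genes (purple) lie above the diagonal and most immediate early factors (green) below it. Values of genes without counts in a control group, such as Sele in M-TC, depend on the prior count of the fit.

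Few genes of GM cells passed a test of the difference in response between dishes. The difference between GM-TC and GM-noTC passed for 98 genes, 0.783% of those tested, 74 of them with a higher log2 fold change in GM-TC (0.591%) and 24 with a lower one (0.192%). It passed for 531 genes without GM-TC replicate 1, for 60 without 1 or the other LPS replicate and for 37 with the lowest level of genes expressed elsewhere subtracted from every library outside the TC controls. The 5 largest positive differences were those of Cxcl10, Il12b, Il6, Cxcl1 and Cxcl9, of which the first 4 are among the 12 strongest rises. Cxcl10 had 29.3 and 26.9 CPM in GM-noTC and 3971 and 3922 CPM in GM-noTC-LPS (difference in log2 fold change 5.65, standard error 0.17, adjusted p = 2.7e-15 from edgeR). Il12b had 6.77 and 7.94 CPM in GM-noTC and 3422 and 3245 CPM in GM-noTC-LPS (difference in log2 fold change 5.52, standard error 0.37, adjusted p = 7.1e-09 from edgeR), and Il6 6.03 and 7.501 CPM in GM-noTC and 1957 and 1877 CPM in GM-noTC-LPS (difference in log2 fold change 4.83, standard error 0.37, adjusted p = 2.0e-08 from edgeR). After LPS the levels of these 3 genes were close in both dishes, and the difference lay in the controls. In GM-noTC the lowest level of genes expressed elsewhere was 0.803% and 0.831% of the mean of the other libraries, and its source was not tested. The GM-noTC control values of these 3 genes were likewise low beside their levels in the LPS libraries. How far they stand above that lowest level was not tested, so a dish difference in their control expression is not established.

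Of the 24 negative differences, 4 were larger than 1 on the log2 scale, those of Gm20388, Cox6a2, Efnb2 and Saa3. Cox6a2, the heart gene named above, and Efnb2, a membrane ligand, were under 5 CPM in all 4 GM-TC and GM-TC-LPS libraries. Saa3, an acute phase protein, had 9.74 and 12.2 CPM in GM-TC and 171 and 214 CPM in GM-TC-LPS, against 4.57 and 6.02 CPM in GM-noTC and 201 and 171 CPM in GM-noTC-LPS (difference in log2 fold change -1.004, standard error 0.20, adjusted p = 0.017 from edgeR). Zfp36l1, an RNA decay factor, had 45.5 and 47.03 CPM in GM-TC and 21.9 and 26.2 CPM in GM-TC-LPS, against 40.9 and 47.9 CPM in GM-noTC and 41.97 and 35.3 CPM in GM-noTC-LPS (difference in log2 fold change -0.74, standard error 0.13, adjusted p = 0.0032 from edgeR). Gadd45a and Ptger2, a stress gene and a prostaglandin E receptor, differed by -0.74 and -0.87. Gm20388 had 22.8 and 24.1 CPM in GM-TC and 0 and 18.3 CPM in GM-TC-LPS, against 0 and 0 CPM in GM-noTC and 20.7 and 19.98 CPM in GM-noTC-LPS, so it went from 0 to about 20 CPM between replicates, and its fold is uncertain.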

How the data were processed

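The authors trimmed reads with fastp (0.18.0), mapped them with HISAT2 and deposited RSEM estimated counts per gene, 1 table for all 16 libraries; Bowtie2 (2.2.8), StringTie (1.3.1), DESeq2 and edgeR are also named in the submitters' processing notes, and the genome build is not given in the sources used here. Per the labels, libraries were made from oligo(dT) selected RNA. The deposited estimated counts were rounded to whole numbers and fitted with edgeR (4.0.16, R 4.3.3) by its quasi-likelihood test, with TMM scaling, filterByExpr and 1 coefficient for each of 8 groups. A gene was called at a Benjamini-Hochberg adjusted p under 0.05 and a fold above 2, and differences between responses at an adjusted p under 0.05. An exact permutation test of 2 against 2 libraries cannot go below p = 0.333 (two-sided) and was not used. Comparisons were tested on simulated data.

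The members and lists were chosen with earlier results of these data known. Named genes are the 12 largest rises and falls at 10 CPM or more without overlap, up to 3 called genes a list and 2 a family at 5 CPM or more, a set of known LPS genes, and the 5 largest differences each way between responses. Other list members, given mostly by their log2 fold change, were added after their values were seen. Promoters and gene structure came from RefSeq (GRCm38.p6) and GENCODE M21. Alternatives were DESeq2 (1.42.0), other scalings and filters, each replicate left out, a replicate block and subtraction of each library's lowest level of genes expressed elsewhere, as an upper estimate of reads carried over between libraries. Same-numbered replicates of GM-TC and GM-TC-LPS did not deviate together (r = -0.0078 across genes), so numbers were not taken as pairs. Some list members are counted in their lists and not reported here by name.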

Additional observations from a re-analysis of the deposited data

Results flagged for a closer look

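Results were marked where the LPS response of GM-TC cells differed from that of another culture by the test of the difference itself (edgeR interaction, adjusted p under 0.05). Against M-TC this was so for 5145 genes. Values are the log2 fold change in GM-TC minus that in M-TC. The largest positive differences were those of Ifit3b (5.03), Cxcl10 (4.07), Ifit1 (4.03), Arl4c (3.98) and Slc26a11 (3.85). The largest negative ones were those of Sele (-9.12), Adamts4 (-7.77), Rgs16 (-7.58), Mycl (-6.48) and Mmp13 (-6.32), of which Sele, Adamts4 and Rgs16 had no count in M-TC, so that their sizes depend on the prior count of the fit. Among genes known from the LPS response, the difference was positive for Tnf (0.56), Cd14 (0.45), Mki67 (0.95), Ciita (1.58) and Klf2 (1.57). It was negative for Il1b (-1.38), Ptgs2 (-1.71), Nos2 (-1.75), Ccl5 (-0.57), Acod1 (-0.16), Socs3 (-4.23), Csf2ra (-0.26), Arg1 (-3.25), Tlr4 (-0.89) and Pparg (-0.36). Arg1 fell short of the fold of 2 in GM-TC, where its LPS replicates lay far apart. Its levels were low in M-TC (0.239 and 0.112 CPM) and M-TC-LPS (1.03 and 0.813 CPM). The standard error of its difference was 0.94.

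Against GM-noTC the difference passed for 98 genes. It was positive for Cxcl10 (5.65), Il12b (5.52), Il6 (4.83), Cxcl1 (4.07) and Cxcl9 (3.54), and among other genes of the LPS response for Il1b (1.87), Ptgs2 (2.42), Ifit1 (2.13), Nos2 (3.19), Tnf (1.61), Ccl5 (1.04) and Acod1 (0.56). For these 12 genes the levels in the GM-noTC controls were above those in GM-TC. It was negative for Gm20388 (-13.23), Saa3 (-1.004), Ptger2 (-0.87), Gadd45a (-0.74) and Zfp36l1 (-0.74). Gm20388 was at 0 in whole libraries and near 20 CPM in others. With the lowest level of genes expressed elsewhere subtracted from every library outside the TC controls, 37 genes passed the threshold, and whether that level is expression or reads from other libraries was not tested. No group held enough libraries for a test of a single library that stands apart.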

How the results depend on the processing

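The number of genes that rose was 1673 and stayed between 1598 and 1722 when 1 library was left out, and the number that fell was 1586 with a range of 1489 to 1558. Without a minimum fold the numbers were 4103 and 4282, and 3233 genes fell under library size alone. Over all tested genes the median log2 fold change was -0.05, and it was -0.53 under library size alone, -0.032 in a fit to the compared libraries only, -0.0090 in DESeq2 on those libraries, 0 without the expression filter and -0.057 to -0.025 with 1 library left out. The cause of these shifts was not tested, apart from the scaling itself.

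Genes whose response differed from M-TC numbered 5145, with a range of 4502 to 5397 when 1 library was left out. Those that differed from GM-noTC numbered 98, and 37 with the lowest level of genes expressed elsewhere subtracted, 61 in a fit to the compared libraries only, 227 without the expression filter and 60 to 531 with 1 library left out. The highest of these was without GM-TC replicate 1, and 60 was reached without GM-TC-LPS replicate 1 and also without replicate 2. With the replicate number as a block (replicate block), 1667 genes rose, 1575 fell, 5116 differed from M-TC and 97 from GM-noTC, and no named gene changed its call.

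Of 116 called named genes, 112 were called under every alternative that gave a value, and no direction was reversed. The exceptions were Sele, Mycl, Abca1 and Tlr4. Leaving out 1 library moved some folds by over 1.5 times. Without GM-TC-LPS replicate 1 the log2 fold change was -6.45 for Ankrd63, -3.14 for Il1r1 and -3.06 for Slc26a11, against -5.80, -2.52 and -2.24. Without GM-TC replicate 1 it was 8.50 for Mefv and 2.88 for Rgs16, and without replicate 2 it was 6.70 for Mefv, 5.42 for Rgs16 and 6.83 for Adamts4, against 7.42, 3.53 and 5.59. Cxcl10, Tnfsf15, Sele, Gm20388 and the genes with 5 counts or fewer in GM-TC (Cxcl9, Ereg, Adm and Ifnb1) moved as much. Levels under 3 counts a library cannot show absence at this depth, and with 2 libraries a group the spread rests on all 16 libraries.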
